A study of Homo sapiens with 84 samples.

Results

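ATF4 and 9 genes of the stress response that it drives were followed in 2 squamous carcinoma cell lines given EGF, the soluble ectodomain of EpCAM (EpEX), or both. The genes are ATF4, DDIT3, TRIB3, DDIT4, SESN2, ASNS, PSAT1, PHGDH, CHAC1 and SLC7A11. They were taken by name through their Ensembl identifiers and are 10 of the 58395 genes in the count tables. No value entered the rule that names them, but they were chosen with earlier results of these data known. All 10 passed the filter on low counts in both lines, which left 15350 genes to test in Kyse30 and 16022 in FaDu. DDIT4 also belongs to the gene signature that the study drew from these same libraries for EGF-induced epithelial-to-mesenchymal transition, so its level under EGFhigh at 72 h is not independent evidence of its direction.

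Kyse30 is a line from a squamous carcinoma of the esophagus and FaDu a line from a squamous carcinoma of the pharynx, negative for papillomavirus. All cells, controls included, were starved of serum for 24 h and then kept serum-free. They were left untreated (Ctrl) for 0, 6 or 72 h, or given, for 6 or 72 h, EGF at 1.8 nM (EGFlow), EGF at 9 nM (EGFhigh), EpEX fused to an immunoglobulin Fc region (EpEX), EGFhigh with EpEX, or the Fc region alone (Fc). Untreated cells are the controls of EGF, and Fc is the control of EpEX and of the combination. Kyse30 had 43 libraries, 3 or 4 in each of 13 conditions. For FaDu, replicates 3 and 4 were used, 20 libraries with 1 or 2 in each condition, and conditions with 1 library are given as values with no test. Each line is 1 model of its tumour type. The labels do not say that replicates were separate cultures, so p-values measure the spread between these libraries, and in bulk RNA fewer cells that express a gene and less RNA per cell cannot be told apart.

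ATF4 is a transcription factor whose mRNA is translated when eIF2 alpha is phosphorylated, which happens when amino acids run short, when proteins misfold in the endoplasmic reticulum or when other stresses reach the eIF2 alpha kinases. It then switches on genes for amino acid uptake and synthesis, for tRNA charging and for redox balance, together with brakes on mTORC1 and regulators of cell death. This is called the integrated stress response, and growth factor signalling through mTORC1 also raises ATF4. DDIT4 answers to other inputs as well, among them hypoxia, glucocorticoids and p53.

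Libraries were 3′ tag libraries of total RNA, in which a fragment comes from the end of a transcript, so levels are given as CPM, the counts of a gene relative to its library's TMM-scaled total, without correction for length. Depth ran from 1944948 to 11759799 counts in Kyse30 and from 6217938 to 12442349 in FaDu, and 3 counts correspond to at most 1.54 CPM in Kyse30 and 0.482 CPM in FaDu, for counting error only. Of 8 squamous markers, 6 lay over a median of 5 CPM in Kyse30, where KRT5 (2.10 CPM) and KRT14 (0.688 CPM) did not, and 8 of 8 in FaDu. All 5 leukocyte markers had a median of 0 CPM in both lines. Of 6 fibroblast markers, COL1A1 (14.1 CPM) and COL1A2 (5.09 CPM) exceeded a median of 5 CPM in Kyse30 and COL1A1 (8.71 CPM) in FaDu, DCN and LUM had a median of 0 in both, and the 3 endothelial markers summed to at most 7.44 CPM in Kyse30 and 9.52 CPM in FaDu. A gene was called where its adjusted p did not exceed 0.05 and its log2 fold change (log2FC) was over 0.5 in size by edgeR's quasi-likelihood test, with Benjamini-Hochberg adjustment over all genes tested, and log2FC is given ± SE. Comparisons that share a control share its libraries.

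Because the ATF4 protein acts through short promoter elements, the 300 bases around each start site in RefSeq (GRCh38.p14, 250 before to 50 after) were searched on both strands. The table held 14 promoters of 9 of the 10 genes. The C/EBP-ATF response element, spelled TGATGNAA, stood in the promoters of ASNS and CHAC1, in 2 of 14 promoters against 3.62% of all 35116. The cAMP response element TGACGTCA stood in none of the 14 and in 1.85% of all promoters. The AP-1 site TGANTCA stood in both promoters of DDIT3 (7.71% of all) and the E-box CACGTG in both promoters of ATF4 (7.26% of all). The 4 windows are shown since they hold every match among the 10 genes, with the matched bases in capitals and the strand of the gene read 5′ to 3′. They lie at chr7:97872455-97872490 on the minus strand (ASNS), chr15:40953248-40953283 on the plus strand (CHAC1, where the match is on the opposite strand), chr22:39520463-39520496 on the plus strand (ATF4) and chr12:57520735-57520764 on the minus strand (DDIT3). A match is a description of letters, not evidence of binding.
ASNS: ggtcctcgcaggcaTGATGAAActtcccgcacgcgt
CHAC1: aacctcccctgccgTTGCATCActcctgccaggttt
ATF4: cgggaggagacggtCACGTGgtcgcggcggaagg
DDIT3: gcgcgcgcaTGACTCAcccacctcctccgt

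The genes are spread over 9 chromosomes. On GRCh38 with GENCODE 29, DDIT4 lies at chr10:72273920-72276036 and SESN2 at chr1:28259527-28282491 on the plus strand, and PHGDH, on the same chromosome as SESN2, at chr1:119648411-119744226. In Kyse30 the 10 genes moved over different ranges. ATF4 itself ran from 144 to 589 CPM over the 43 libraries, and its condition means differed by 1.8-fold at most. DDIT4, an inhibitor of mTORC1, ran from 54.5 to 614 CPM, with a 5.53-fold range between the condition means. CHAC1, which degrades glutathione, ran from 0.967 to 136 CPM, an 8.58-fold range. SESN2, a leucine sensor that restrains mTORC1, spanned 3.59-fold in its means, TRIB3, a pseudokinase that restrains AKT and ATF4, 2.80-fold, and SLC7A11, the cystine carrier of system xc-, 3.24-fold. PSAT1 and PHGDH, enzymes of serine synthesis, spanned 3.74-fold and 3.24-fold. DDIT3, the pro-apoptotic factor CHOP, spanned 2.19-fold. ASNS, asparagine synthetase, was near the floor, with at most 8.43 CPM and 3 libraries at 0, so its Kyse30 values rest on few counts. DDIT3 overlaps MARS and MBD6 on the opposite strand, and how the counting treated strand is not given in the sources used here, so its values may hold reads of these genes.

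**Figure D1:**
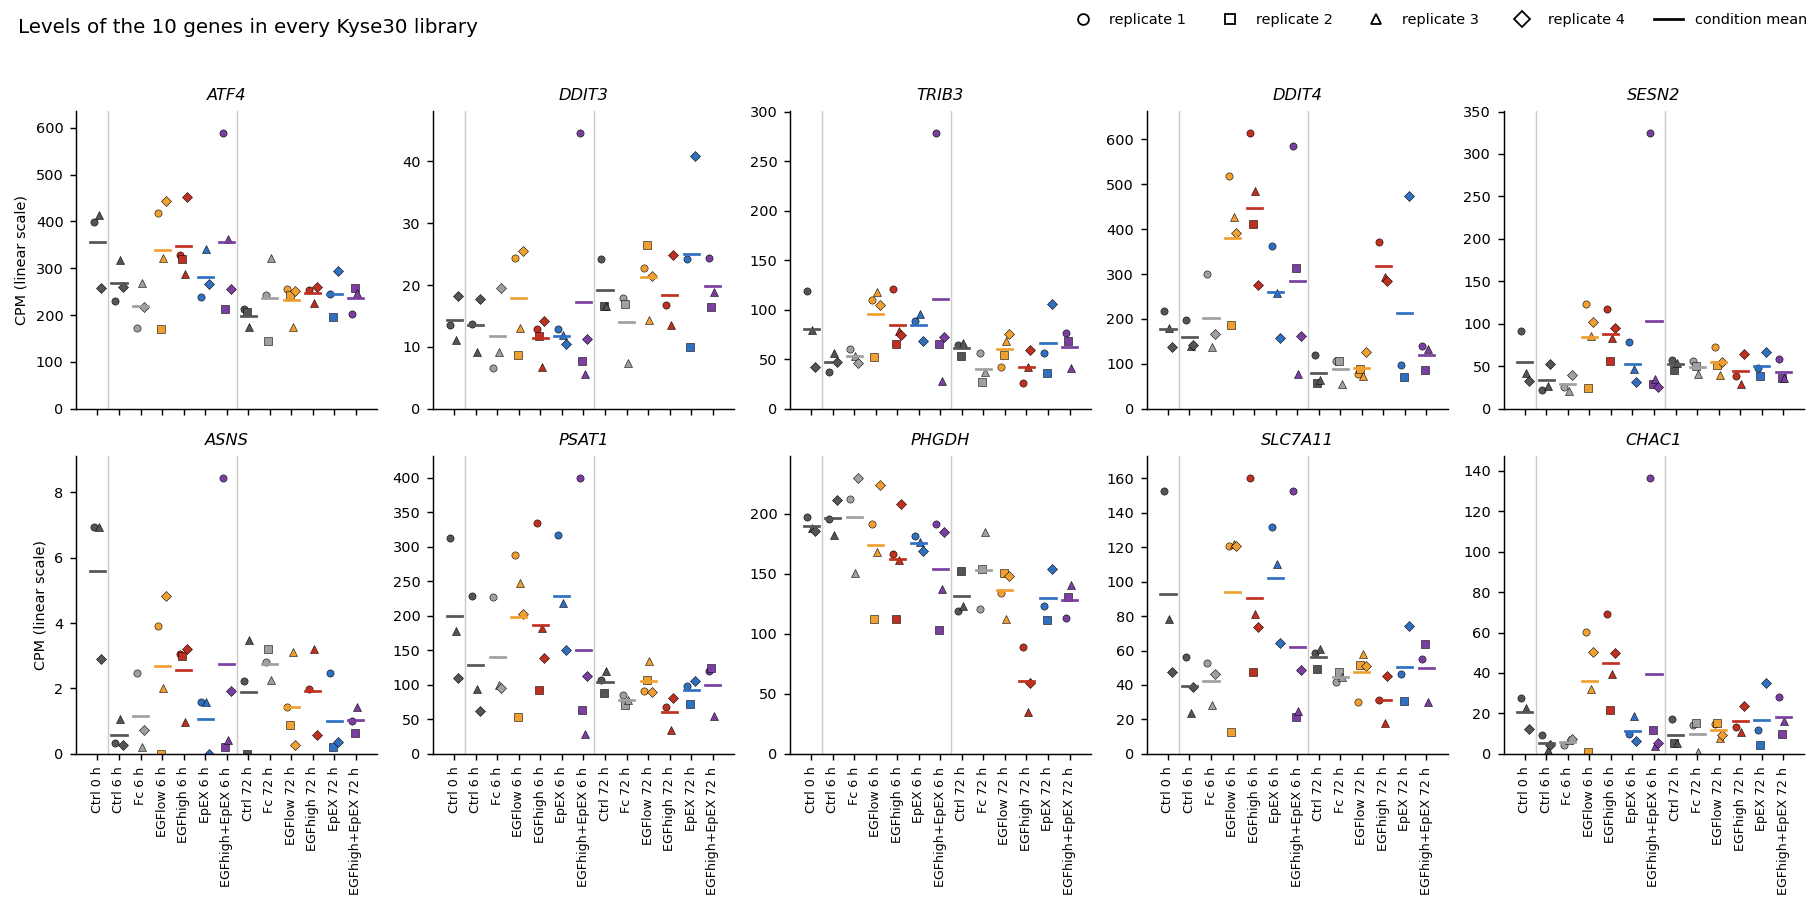
Levels of the 10 genes in Kyse30. Each panel is 1 gene, the x axis the 13 conditions, the y axis CPM on a linear scale from 0, each point 1 library with its replicate number as the marker, and each bar the condition mean. DDIT4 stood highest under EGFlow and EGFhigh at 6 h, with means of 380.1 and 446 CPM, and PHGDH lowest under EGFhigh at 72 h, at 60.9 CPM.

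The first question was what EGF did to these genes within 6 h. In Kyse30, several of the 10 stood higher in every EGFhigh library than in every untreated one, and whether they were called depended on the setting. The share of all genes without overlap was not computed for comparisons within Kyse30. Non-overlap there describes the libraries and is not evidence about these genes. None passed the test at either EGF dose when all 43 libraries were fitted together. DDIT4 was at 199, 140.1 and 141 CPM in the 3 untreated libraries, at 518, 186, 426 and 391 CPM in the 4 EGFlow libraries and at 614, 411, 485 and 275 CPM in the 4 EGFhigh libraries. The EGFhigh libraries were all above the untreated ones, whereas 1 EGFlow library lay among them. The differences were log2FC 1.48 ± 0.48, adjusted p = 0.0885 for EGFhigh and log2FC 1.25 ± 0.47, adjusted p = 0.197 for EGFlow. CHAC1 was at 9.21, 2.16 and 4.35 CPM untreated and 69.0, 21.8, 39.4 and 49.7 CPM under EGFhigh, without overlap (log2FC 3.12 ± 0.93, adjusted p = 0.0584). Under EGFlow, CHAC1 was at 60.4, 1.17, 31.9 and 50.3 CPM, so that 1 library lay under and 3 lay over the untreated ones (log2FC 2.80 ± 0.91, adjusted p = 0.12).

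SESN2 and TRIB3 likewise had all EGFhigh libraries above the untreated ones at 6 h in Kyse30. SESN2 was at 22.1, 26.4 and 52.2 CPM untreated and 117, 56.0, 83.7 and 94.8 CPM under EGFhigh (log2FC 1.38 ± 0.56, adjusted p = 0.194). TRIB3 was at 37.0, 56.0 and 47.3 and 121, 65.0, 78.6 and 74.9 CPM (log2FC 0.85 ± 0.43, adjusted p = 0.343). ATF4 (log2FC 0.37 ± 0.27, adjusted p = 0.583), DDIT3 (log2FC -0.24 ± 0.48, adjusted p = 0.881) and PHGDH (log2FC -0.28 ± 0.23, adjusted p = 0.637) differed less. By counts, 0 of 10 genes were called under EGFlow, against 1.5% of all genes tested, and 0 of 10 under EGFhigh, against 2.55%. At an unadjusted p under 0.05 there were 5 and 4, and DESeq2 called 0 and 1, the latter CHAC1. Under EGFhigh, CHAC1 was called in 6 of 7 other settings (adjusted p from 5.17e-13 to 0.057) and DDIT4 in 4 of 7 (2.23e-08 to 0.0856), while in 7 fits with 1 library left out neither was called (lowest adjusted p 0.0693 and 0.0691). Over the 7 other settings the count of the 10 genes called ran from 0 to 5 at each dose. The median log2FC of the 10 was 1.14 under EGFlow and 1.02 under EGFhigh, where the medians of all genes were -0.04 and -0.05. Untreated cells at 6 h had themselves a median of -0.69 for the 10 genes against 0 h, so these differences do not measure a rise over 0 h. Condition means under EGFhigh at 6 h were above those at 0 h for DDIT4, CHAC1, SESN2 and TRIB3, and below them for the other genes. That difference was not tested. No gene of the 10 was called between EGFhigh and EGFlow at 6 h, with 0 of 10 (0% of all genes tested, 0 of the 10 at an unadjusted p under 0.05, 0 by DESeq2) and a difference for DDIT4 of log2FC 0.23 ± 0.42, adjusted p = 1.

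EGFlow replicate 2 at 6 h in Kyse30 stood apart from its group. It was the lowest of the 4 libraries for CHAC1, SLC7A11 and TRIB3, and the median of the 10 genes was 1.67 lower on the log2 scale than in the other libraries, while it was the highest of the 4 for 28.2% of all genes. Mitochondrial genes took 11.1% of its counts, where the Kyse30 libraries at 0 and 6 h ran from 5.99% to 14.8%. Without this library 1 of the 10 genes was called under EGFlow, CHAC1 (log2FC 3.22, adjusted p = 0.0402).

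EpEX at 6 h in Kyse30 raised none of the 10 past the threshold. SLC7A11 was at 52.8, 28.3 and 46.6 CPM under Fc and 132, 110.3 and 64.4 CPM under EpEX, with no overlap (log2FC 1.27 ± 0.56, adjusted p = 0.467). DDIT4 was at 299.6, 138 and 167 and 362, 259 and 158 CPM, which overlap (log2FC 0.37 ± 0.49, adjusted p = 0.892). Of the 10 genes 0 were called, against 0.0261% of all genes tested, 1 had an unadjusted p under 0.05 and DESeq2 called 0.

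With EGFhigh and EpEX together, SESN2 was the only one of the 10 called at 6 h in Kyse30, against 4.52% of all genes tested. It was at 25.1, 21.2 and 40.1 CPM under Fc and 325, 29.1, 34.9 and 25.1 CPM under the combination (log2FC 1.84 ± 0.57, adjusted p = 0.0498). The groups overlap, and replicate 1 alone is high. Without it the difference was 0.08 on the log2 scale, with an adjusted p of 0.954, and the call was also lost without any 1 of the Fc libraries. This library was the highest of its 4 for 10 of 10 genes, against 25% of all genes, and had 7.44% mitochondrial counts. All 7 replicate 1 libraries of Kyse30 at 0 and 6 h lay between 5.99% and 7.44%, where replicates 3 and 4 ran from 9.31% to 14.8%. Replicate 2 ran from 6.88% to 11.1%, with 6.88% in its combination library, where SESN2 was at 29.1 CPM. CHAC1 was at 136, 12, 3.78 and 5.36 CPM under the combination (log2FC 2.70 ± 0.91, adjusted p = 0.0757) and DDIT4 at 585, 313, 76.9 and 162 CPM (log2FC 0.49 ± 0.46, adjusted p = 0.606). Adding EpEX to EGFhigh gave 0 of 10 calls at 6 h (0% of all genes tested, 0 of the 10 at an unadjusted p under 0.05, 0 by DESeq2).

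**Figure D2:**
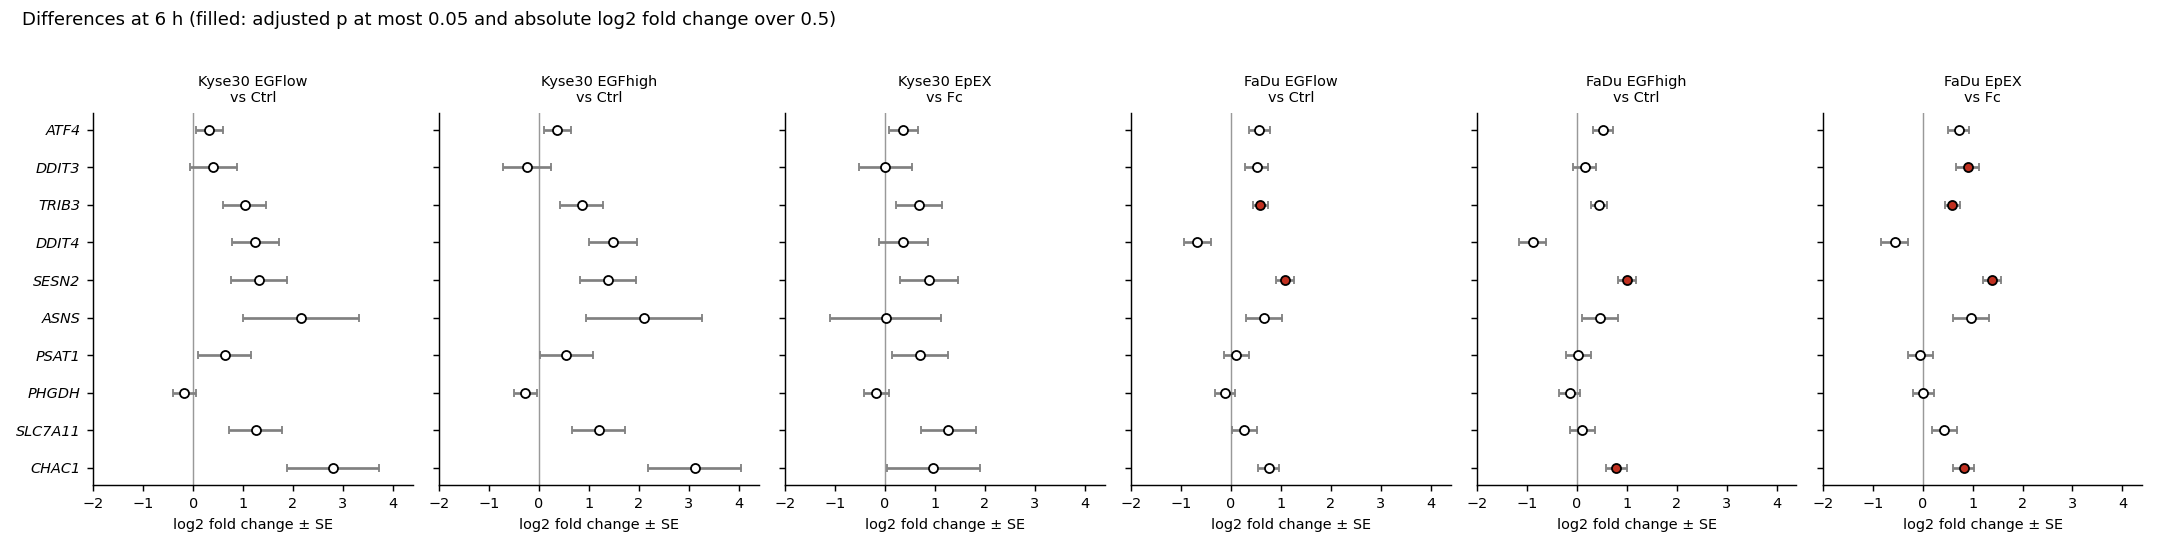
Differences at 6 h for the 10 genes. Each panel is 1 comparison, the x axis is the log2 fold change with its SE, and points are red for genes called higher, blue for genes called lower and open for those not called. In Kyse30, CHAC1 has the highest value under EGFhigh, 3.12 ± 0.93, and is not called in this fit, whereas in FaDu SESN2 is called under EGFlow, EGFhigh and EpEX with smaller differences and smaller errors.

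After 72 h, EGFhigh left DDIT4 high and PHGDH low in Kyse30. DDIT4 was at 119.9, 58.2 and 64.0 CPM untreated and 372, 295 and 286 CPM under EGFhigh. All EGFhigh libraries stood above all untreated ones, and DDIT4 rose 3.92-fold (log2FC 1.97 ± 0.51, adjusted p = 0.0121), from 80.7 ± 34.1 to 318 ± 47.7 CPM (mean ± SD, n = 3 each). PHGDH, the first enzyme of serine synthesis from glucose, fell from 119, 152 and 123 to 88.9, 34.6 and 59.1 CPM, also without overlap (log2FC -1.10 ± 0.25, adjusted p = 0.00449). These were 1 of 10 genes called higher and 1 lower, against 6.2% of all genes tested in either direction.

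The other 8 genes did not pass the test under EGFhigh at 72 h and were split by direction, with 3 higher and 5 lower. ATF4 was at 213, 207 and 174 CPM untreated and 254, 227 and 259 CPM under EGFhigh (log2FC 0.32 ± 0.29, adjusted p = 0.61). PSAT1 (log2FC -0.77 ± 0.57, adjusted p = 0.489) and SLC7A11 (log2FC -0.83 ± 0.55, adjusted p = 0.436) had all EGFhigh libraries below the untreated ones. CHAC1 was at 17.1, 5.53 and 5.32 and 13.4, 10.9 and 23.8 CPM, with overlap (log2FC 0.74 ± 0.89, adjusted p = 0.715). The median of the 10 was -0.15 and that of all genes -0.03. The call of DDIT4 was lost without untreated replicate 2 (log2FC 1.79, adjusted p = 0.0861) or 3 (1.83), and that of PHGDH without EGFhigh replicate 3 (-0.82, adjusted p = 0.0691) or when only the 2 groups compared were fitted (-1.09, adjusted p = 0.0826).

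DDIT4 and PHGDH also differed between the doses of EGF at 72 h. In the 4 EGFlow libraries DDIT4 was at 76.8, 89.7, 72.0 and 125 CPM and PHGDH at 134, 150.5, 113 and 148 CPM. DDIT4 was higher (log2FC 1.8 ± 0.46, adjusted p = 0.0157) and PHGDH lower (log2FC -1.16 ± 0.24, adjusted p = 0.00229) under EGFhigh than under EGFlow, without overlap in either, and 3.73% of all genes tested were called. The DDIT4 call was lost without EGFhigh replicate 1 (1.68, adjusted p = 0.0554), and the PHGDH call without EGFhigh replicate 3 (-0.87, adjusted p = 0.0533) or with only the groups compared (-1.13, adjusted p = 0.0798). EGFlow against untreated cells at 72 h gave 0 of 10 calls, with 0 at an unadjusted p under 0.05, 0 by DESeq2 and 0% of all genes tested called.

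Adding EpEX to EGFhigh set PHGDH apart again at 72 h. It was at 113, 130.2 and 140.4 CPM with the combination, above all EGFhigh libraries (log2FC 1.07 ± 0.25, adjusted p = 0.00925). This was 1 of 10 genes called, against 3.58% of all genes tested, and was lost without EGFhigh replicate 3 (0.79, adjusted p = 0.102) or with only the groups compared (1.06, adjusted p = 0.126). DDIT4 was at 139, 87.1 and 133 CPM, below all EGFhigh libraries (log2FC -1.41 ± 0.50, adjusted p = 0.111). It was called in 2 of 6 other settings, among them the fit of only the groups compared (-1.41). It was not called in any of 6 fits with 1 library left out (-1.54 to -1.22). These differences use the same EGFhigh libraries as the preceding comparisons. Against Fc, the combination gave 0 of 10 calls at 72 h (0% of all genes tested, 0 of the 10 at an unadjusted p under 0.05, 0 by DESeq2).

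EpEX alone at 72 h also gave 0 of 10 calls against Fc (0% of all genes tested, 0 by DESeq2), with DDIT4 the 1 gene at an unadjusted p under 0.05. DDIT4 was at 107, 107 and 54.5 CPM under Fc and 96.5, 71.1 and 474 CPM under EpEX (log2FC 1.25 ± 0.50, adjusted p = 1). Replicate 4 alone was high, and without it the difference was -0.10. That library was the highest of its 3 for 9 of the 10 genes, against 34.6% of all genes.

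**Figure D3:**
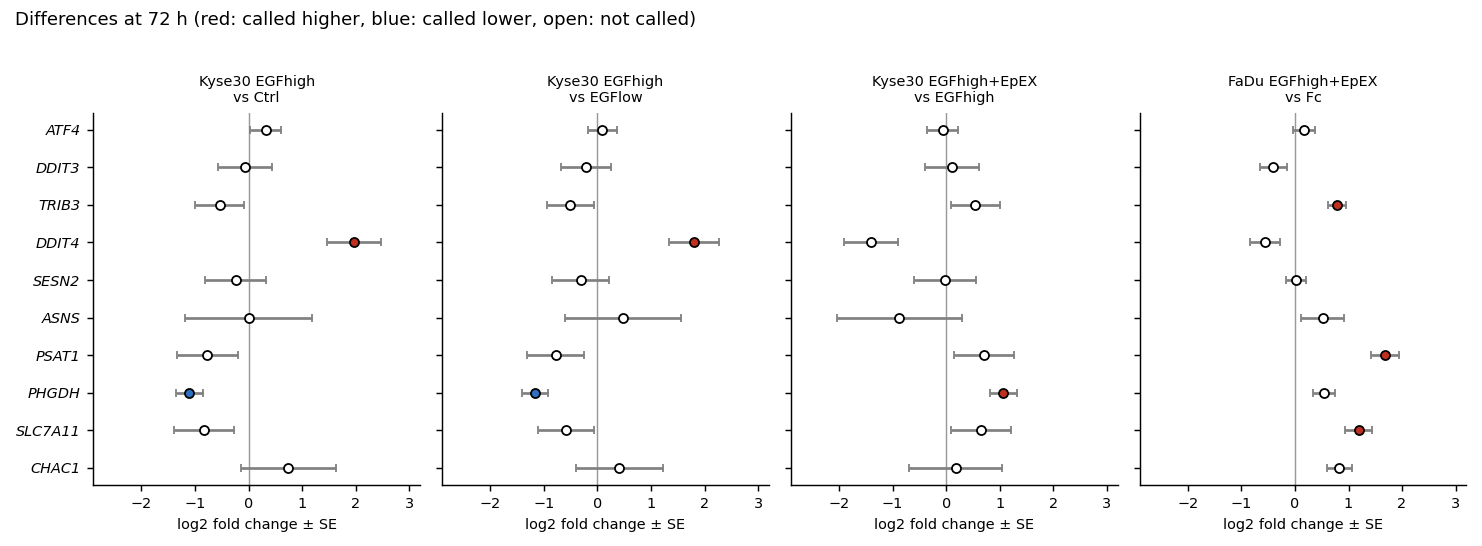
Differences at 72 h for the 10 genes. Each panel is 1 comparison, the x axis is the log2 fold change with its SE, and points are red for genes called higher, blue for genes called lower and open for those not called. In Kyse30 under EGFhigh, DDIT4 (1.97 ± 0.51) lies to the right and PHGDH (-1.10 ± 0.25) to the left, and in FaDu under the combination PSAT1 (1.68 ± 0.26) leads.

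The response to EGFhigh at 72 h and that at 6 h were set against each other in Kyse30. DDIT4 had higher means under EGFhigh at both times, and the difference between the responses was within its error (log2FC 0.49 ± 0.67, adjusted p = 0.808). SLC7A11 (log2FC -2.02 ± 0.76, adjusted p = 0.204), SESN2 (log2FC -1.63 ± 0.79, adjusted p = 0.352), TRIB3 (log2FC -1.39 ± 0.63, adjusted p = 0.305) and CHAC1 (log2FC -2.37 ± 1.25, adjusted p = 0.396) had a lower log2FC of EGFhigh against untreated cells at 72 h than at 6 h. These are differences of responses, not of levels. None of the 10 was called in this comparison, against 1.01% of all genes tested, 4 had an unadjusted p under 0.05 and DESeq2 called 0. The median of the 10 was -1.35 and that of all genes 0.01.

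Control conditions gave no calls among the 10 genes in Kyse30. Fc against untreated cells gave 0 of 10 calls at 6 h and at 72 h (0% and 0% of all genes tested, 0 of the 10 at an unadjusted p under 0.05 and 0 by DESeq2 at each time). Untreated cells at 6 h against 0 h gave 0 of 10 calls (0% of all genes tested, 3 of the 10 at an unadjusted p under 0.05, 0 by DESeq2), with CHAC1 at 27.6, 22.4 and 12.5 CPM at 0 h (log2FC -2.02 ± 0.93, adjusted p = 1). Of the 10 genes, 9 were lower and 1 higher at 6 h, with a median of -0.69, where all genes had 5e-04. Untreated cells at 72 h against 6 h gave 0 of 10 calls (1.55% of all genes tested, 1 of the 10 at an unadjusted p under 0.05, 0 by DESeq2). DDIT4 nevertheless had all 72 h libraries below the 6 h ones (log2FC -0.98 ± 0.50, adjusted p = 0.39).

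In FaDu, the same treatments at 6 h gave SESN2 above its control libraries without overlap each time. SESN2 was at 192 and 295 CPM untreated, 503 and 532 CPM under EGFlow and 481 and 498 CPM under EGFhigh. It rose 2.13-fold under EGFlow (log2FC 1.09 ± 0.18, adjusted p = 0.0013) and 2.01-fold under EGFhigh (log2FC 1.01 ± 0.18, adjusted p = 0.0028). Under EpEX it stood at 616 and 629 CPM against 229.6 and 245 CPM under Fc, a rise of 2.62-fold (log2FC 1.39 ± 0.18, adjusted p = 0.00013). With any 1 library left out, the EGFlow and EpEX calls held (adjusted p at most 0.0488 and 0.00475), while the EGFhigh call was lost without untreated replicate 3 (log2FC 0.73, adjusted p = 0.0995). The single library of the combination at 6 h was at 389 CPM.

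CHAC1, TRIB3 and DDIT3 were also called higher in FaDu at 6 h, each under some of the treatments in the reported fit. CHAC1 was at 80.6 and 91.1 CPM untreated and 157 and 140.1 CPM under EGFhigh (log2FC 0.79 ± 0.21, adjusted p = 0.0425), and at 101 and 90.1 CPM under Fc and 177 and 161 CPM under EpEX (log2FC 0.82 ± 0.21, adjusted p = 0.0326). Under EGFlow it missed the threshold in the reported fit (log2FC 0.76 ± 0.21, adjusted p = 0.0511). It was called there in 6 of 8 other settings, as many as kept the EGFhigh call. TRIB3 rose under EGFlow, from 303 and 309 to 462 and 461 CPM (log2FC 0.59 ± 0.16, adjusted p = 0.0439), and under EpEX, from 339.7 and 280.3 to 503 and 434 CPM (log2FC 0.60 ± 0.16, adjusted p = 0.0417). DDIT3 rose under EpEX, from 37.8 and 26.9 to 57.0 and 64.0 CPM (log2FC 0.91 ± 0.23, adjusted p = 0.0339). Each of these calls rests on both libraries of each group. Those of CHAC1 and TRIB3 were lost when any 1 library was left out, with log2FC from 0.69 to 0.88 for CHAC1 under EGFhigh, 0.75 to 0.91 under EpEX, and 0.57 to 0.61 for TRIB3 under EGFlow and 0.48 to 0.74 under EpEX, and that of DDIT3 was lost in 3 of 4 such fits (0.70 to 1.17). ATF4, their shared regulator, was at 1274 and 1308 CPM under Fc and 2429 and 1829 CPM under EpEX, without overlap but short of the threshold (log2FC 0.72 ± 0.21, adjusted p = 0.0699). This difference was called in 4 of 8 other settings.

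DDIT4 stood on the other side in FaDu. It was at 831 and 534 CPM untreated, 467 and 388 CPM under EGFlow and 420.1 and 319 CPM under EGFhigh, with all treated libraries below both untreated ones. Neither difference passed edgeR's test in the reported fit (log2FC -0.67 ± 0.27, adjusted p = 0.239 and log2FC -0.89 ± 0.27, adjusted p = 0.103). The EGFlow difference was called in 2 of 8 other settings and the EGFhigh difference in 3 of 8, among them DESeq2 (-0.89). With 1 library left out, the log2FC ran from -0.96 to -0.32 under EGFlow and from -1.17 to -0.53 under EGFhigh. Under EpEX it was at 411 and 436 CPM against 809.8 and 439 CPM under Fc (log2FC -0.56 ± 0.27, adjusted p = 0.371).

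By counts, 2 of the 10 genes were called higher in FaDu under EGFlow (3.45% of all genes tested were called), 2 under EGFhigh (3.06%) and 4 under EpEX (3.5%). Libraries of the groups did not overlap for 8 of the 10 under EGFlow, 7 higher and 1 lower (42.8% of all genes tested do not overlap in either direction with groups of 2), for 6 under EGFhigh, 5 higher and 1 lower (40.8%), and for 8 under EpEX, 7 higher and 1 lower (39.8%). The medians of the 10 were 0.54, 0.30 and 0.66, against -0.02, -0.01 and -0.01 over all genes. EGFhigh against EGFlow gave 0 of 10 calls (0% of all genes tested), and Fc against untreated cells 0 of 10 (0%), with 0 of the 10 at an unadjusted p under 0.05 and 0 by DESeq2 in both. When replicates 1 and 2 of FaDu, with a median depth of 4260356 counts against 9259762, were added to the fit, 0 of the 10 were called in any FaDu comparison tested. The share of all genes called in that fit is not given here, so this count is not a result about the 10 genes alone.

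**Figure D4:**
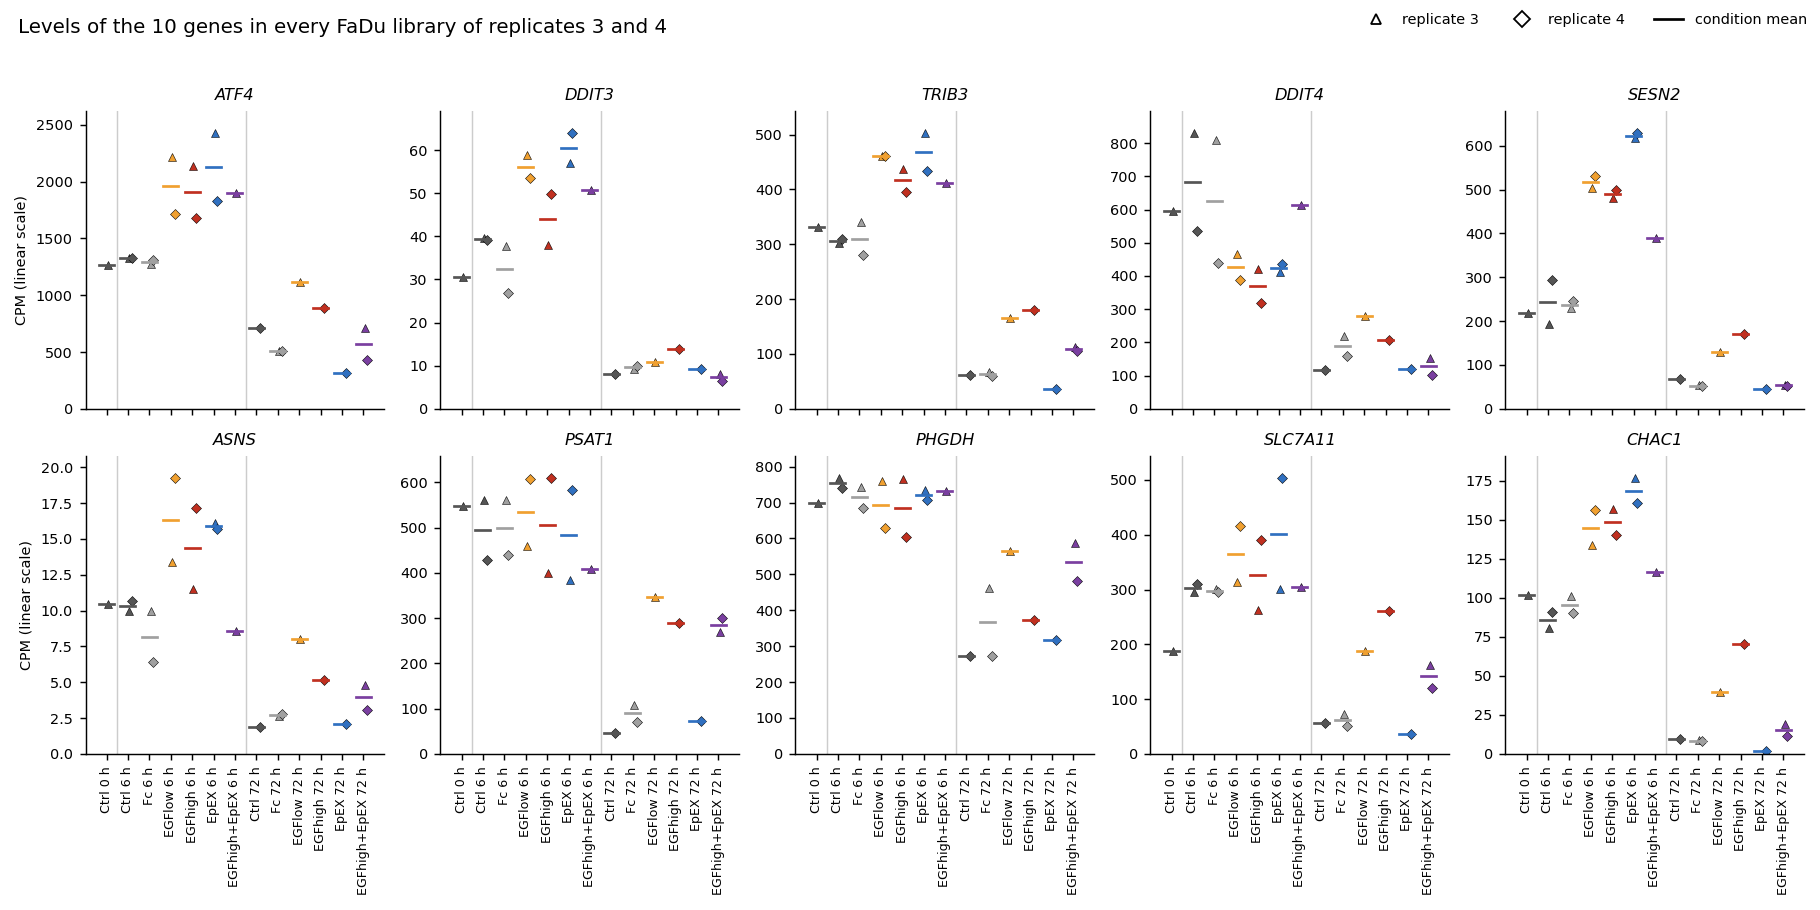
Levels of the 10 genes in FaDu, replicates 3 and 4. Each panel is 1 gene, the x axis the 13 conditions, the y axis CPM on a linear scale from 0, each point 1 library with its replicate number as the marker, and each bar the condition mean, which is the single value where a condition has 1 library. SESN2 has a mean of 622.6 CPM under EpEX at 6 h and is at 46.1 CPM in the 1 EpEX library at 72 h.

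At 72 h in FaDu only the combination and Fc had 2 libraries each. PSAT1, SLC7A11 and TRIB3 rose under the combination. PSAT1, the second enzyme of serine synthesis, was at 108 and 71.1 CPM under Fc and 270.4 and 301 CPM under the combination (log2FC 1.68 ± 0.26, adjusted p = 0.00394). SLC7A11 rose from 72.2 and 51.6 to 162 and 120.4 CPM (log2FC 1.19 ± 0.25, adjusted p = 0.0296) and TRIB3 from 66.3 and 60.5 to 113 and 105 CPM (log2FC 0.79 ± 0.16, adjusted p = 0.0233). All combination libraries of these genes lay above all Fc libraries. With 1 library left out the calls of SLC7A11 (log2FC 0.97 to 1.45) and TRIB3 (0.72 to 0.85) were lost in each of 4 fits, and that of PSAT1 (1.40 to 2.01) without replicate 4 of either group. SESN2 was at 54.5 and 51.4 and 54.5 and 52.9 CPM (log2FC 0.02 ± 0.18, adjusted p = 1), with overlap, and DDIT4 at 219.8 and 158 and 154 and 103 CPM (log2FC -0.56 ± 0.28, adjusted p = 0.762). The 3 of 10 genes called compare with 0.818% of all genes tested, and libraries did not overlap for 8 of the 10, 6 higher and 2 lower, against 41.1% of all genes in either direction. The median of the 10 was 0.53 and that of all genes -0.01.

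The FaDu conditions with 1 library at 72 h are given without a test. In the EGFhigh library SESN2 was at 172 CPM, CHAC1 at 70.8 CPM and TRIB3 at 180.1 CPM, where the untreated library had 67.6, 9.70 and 61.1 CPM. In the EGFlow library the values were 130.1, 39.7 and 166 CPM. DDIT4 was at 208 CPM in the EGFhigh, 279.9 CPM in the EGFlow and 116 CPM in the untreated library. These libraries have no replicate check.

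Time in serum-free culture was the FaDu comparison with the most calls among the 10 genes. Between 6 and 72 h under Fc, 10 of 10 fell, against 2.88% of all genes tested called in either direction and 1.91% called lower, and all 72 h libraries lay below all 6 h libraries for 10 of 10 (22.6% of all genes). CHAC1 fell from 101 and 90.1 to 9.10 and 8.02 CPM (log2FC -3.48 ± 0.24, adjusted p = 3.86e-07) and TRIB3 from 339.7 and 280.3 to 66.3 and 60.5 CPM (log2FC -2.29 ± 0.17, adjusted p = 4.75e-07). PSAT1 (log2FC -2.48 ± 0.26, adjusted p = 1.72e-05) and SLC7A11 (log2FC -2.27 ± 0.26, adjusted p = 3.41e-05) fell by similar amounts. ATF4 fell from 1274 and 1308 to 510.0 and 507 CPM (log2FC -1.34 ± 0.21, adjusted p = 0.000985) and DDIT4 from 809.8 and 439 to 219.8 and 158 CPM (log2FC -1.72 ± 0.28, adjusted p = 0.00123). PHGDH fell least (log2FC -0.96 ± 0.21, adjusted p = 0.0144). With 1 library left out, 7 of the 10 genes stayed called in each of 4 such fits, while ASNS (log2FC -1.85 to -1.22) was lost in 3, PHGDH (-1.38 to -0.63) in 2, without Fc replicate 3 at 6 h or replicate 4 at 72 h, and DDIT4 (-2.09 to -1.22) without Fc replicate 4 at 72 h. The median of the 10 was -1.96 and that of all genes 0.03. With replicates 1 and 2 of FaDu added, 0 of the 10 were called here, a count also given without its share of all genes.

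The untreated cells of the 2 lines at 6 h were compared in a joint fit of 63 libraries. All 10 genes were lower in Kyse30, against 22.4% of all genes tested called in either direction and 10.4% called lower, and all Kyse30 libraries lay below both FaDu libraries for 10 of 10 (24.2% of all genes). ATF4 was at 229.6, 318 and 261 CPM in Kyse30 and 1324 and 1330.5 CPM in FaDu (log2FC -2.33 ± 0.31, adjusted p = 3.38e-08). SESN2 (log2FC -2.89 ± 0.58, adjusted p = 0.000106), SLC7A11 (log2FC -2.97 ± 0.56, adjusted p = 3.88e-05) and DDIT4 (log2FC -2.13 ± 0.51, adjusted p = 0.00105) were lower too. ASNS had 2, 9 and 2 counts in the untreated Kyse30 libraries, so its fitted difference depends on few counts. The median of the 10 was -2.53 and that of all genes 0. With all FaDu libraries in the fit 0 of the 10 were called, a count also given without its share of all genes. Cell line and any difference in how its libraries were handled cannot be told apart.

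Whether EGFhigh acted differently on the genes in the 2 lines at 6 h was tested as a difference of responses. DDIT4 was higher with EGFhigh in Kyse30 and lower in FaDu, and the difference of responses was 2.39 ± 0.71, with an adjusted p of 0.442. None of the 10 was called, against 0.0611% of all genes tested, 1 had an unadjusted p under 0.05 and DESeq2 called 0. The DDIT4 difference was called with no filter on low counts (adjusted p = 1.53e-08) and in 9 of 11 fits of only the groups compared with 1 library left out (2.03 to 2.66, adjusted p from 0.00181 to 0.15), the exceptions being the fits without FaDu untreated replicate 3 or EGFhigh replicate 4. It was not called in the 5 other settings. CHAC1, higher in both lines, differed by 2.36 ± 1.20 (adjusted p = 1).

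Other genes of the pathway came from 12 lists of 114 genes. In Kyse30 under EGFhigh at 6 h, 3 of 108 genes tested were called higher and 3 lower (2.55% of all genes were called). HSPA5, the chaperone BiP (log2FC 0.70 ± 0.18, adjusted p = 0.0277), XBP1 (1.15) and the cell death gene PMAIP1 (1.34) rose. ATF3, a partner and target of ATF4, fell (log2FC -1.79 ± 0.41, adjusted p = 0.0109), and it was also lower under EGFlow (-2.05) and under the combination against Fc (-1.69). At 72 h under EGFhigh, 1 of 108 was called higher and 5 lower (6.2% of all genes were called). NDRG1, also known as a hypoxia-induced gene, rose from a mean of 127 to 509 CPM (log2FC 2.0 ± 0.47, adjusted p = 0.00569), while ATF3 (-1.50), the bZIP factor JDP2 (-1.96), the serine phosphatase PSPH (-0.91), SESN1, a relative of SESN2, (-2.08) and the phosphatase DUSP1 (-1.51) fell.

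In FaDu, genes of several lists were called beside the 10 genes. At 6 h under EpEX, 13 of 109 genes were called higher and 0 lower (3.5% of all genes were called), among them PPP1R15A, which recruits the eIF2 alpha phosphatase (log2FC 2.0 ± 0.22, adjusted p = 2.72e-05), NDRG1 (2.16), the cell cycle inhibitor CDKN1A (3.68) and 3 tRNA synthetases, GARS (0.87), NARS (0.76) and TARS (0.65). Under the combination at 72 h, 8 of 12 tRNA synthetases rose (0.818% of all genes were called), with a median of 0.81 over the 12 and GARS at log2FC 1.14 ± 0.18, adjusted p = 0.00451, and the glycine carrier SLC6A9 rose by 1.73. Between 6 and 72 h under Fc, 12 of 12 synthetases (median -1.38), 8 of 9 amino acid transporters (-1.44) and 8 of 12 tested genes of serine, one-carbon and proline synthesis (-1.31) fell, and 0 of these rose (1.91% of all genes were called lower). The chaperones of the endoplasmic reticulum had 5 of 15 lower with a median of -0.06, where all genes had 0.03. Untreated Kyse30 cells at 6 h had 8 of 12 synthetases (median -1.30), 7 of 9 transporters (-2.13) and 9 of 12 genes of serine, one-carbon and proline synthesis (-1.50) lower than FaDu (10.4% of all genes were called lower and 22.4% in either direction), and ATF3 higher (2.10).

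**Figure D5:**
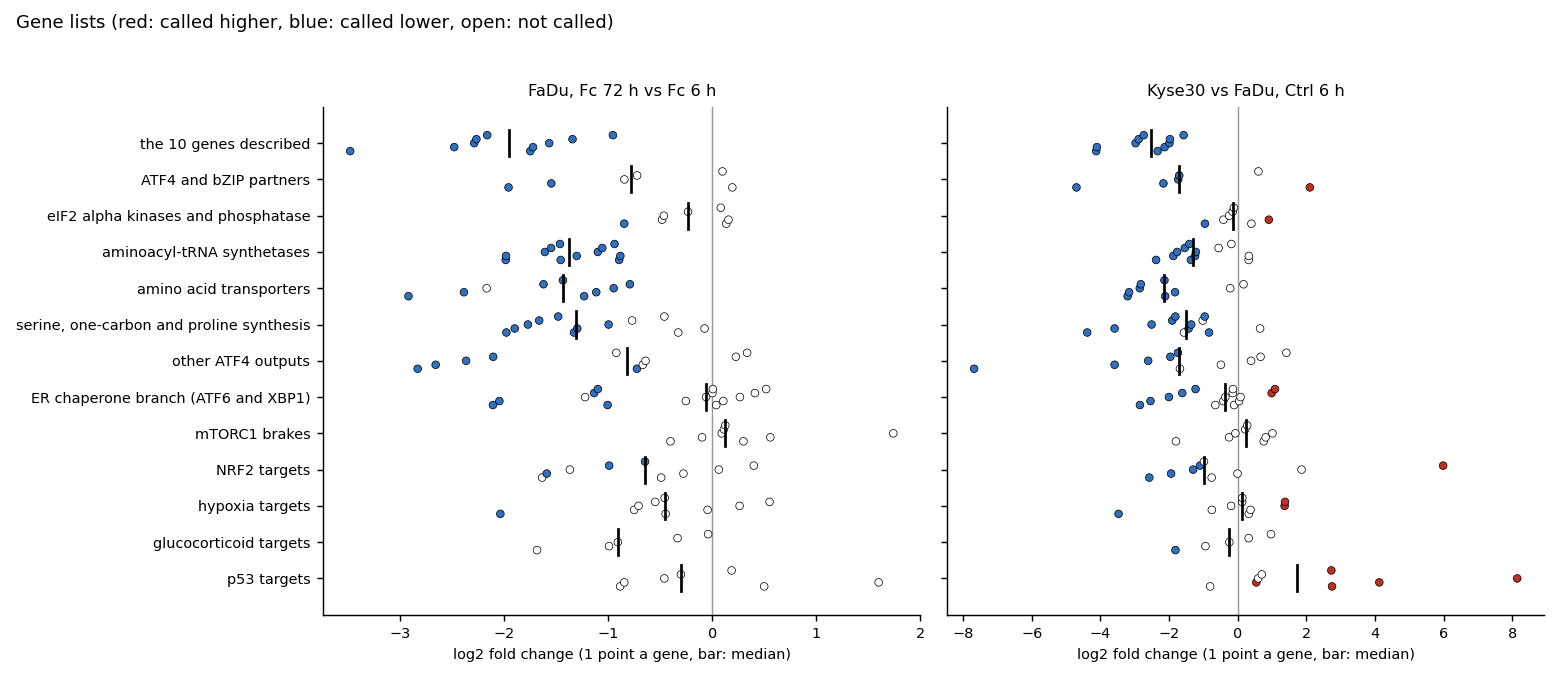
Genes of the pathway lists and the 10 genes described, for Fc at 72 against 6 h in FaDu (left) and for untreated Kyse30 against FaDu at 6 h (right). The x axis is the log2 fold change, each point 1 gene, each bar the median of a list, with genes called higher in red, lower in blue and those not called open. In the left panel the synthetases, with a median of -1.38, lie to the left of 0 as the 10 genes do, with a median of -1.96.

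DDIT4 followed a pattern over the 13 Kyse30 conditions that the other targets of ATF4 shared only in part. As a description over condition means of log2 CPM, which share libraries and controls, Pearson's r with DDIT4 was 0.71 for ATF4, 0.59 for CHAC1, 0.46 for TRIB3, 0.37 for PSAT1, 0.33 for SESN2, 0.28 for SLC7A11, -0.06 for PHGDH and -0.44 for DDIT3. Among 10241 genes with a mean of at least 5 CPM, the patterns most like that of DDIT4 were those of TGFA, a ligand of EGFR (0.963), ENSG00000230439 (0.961), STK40 (0.96), IPPK (0.953) and MARK3 (0.948). The condition means of DDIT4 in Kyse30 ran from 446 CPM under EGFhigh at 6 h, through 380.1 under EGFlow at 6 h and 318 under EGFhigh at 72 h, to 80.7 in untreated cells at 72 h, and libraries of neighbours in that order overlapped except between untreated cells at 6 h and the combination at 72 h.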

How the data were processed

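RNA was extracted from Kyse30 and FaDu cells and sequenced as QuantSeq 3′ FWD libraries. Per the labels the authors deposited raw read counts per gene, 1 table a library, and the submitters' processing notes name STAR, HTSeq and GRCh38. Versions, the annotation release, the strand setting and the handling of molecular identifiers are not given in the sources used here. Ensembl identifiers were paired with symbols of GENCODE release 29 (58275 of 58395 matched). Counts were filtered by group (filterByExpr, minimum count 10, minimum total 15), scaled by TMM and fitted with edgeR 4.0.16 (quasi-likelihood, R 4.3.3) with 1 coefficient per condition, separately in 43 Kyse30 and 20 FaDu libraries and jointly over 63, for 26 comparisons. The fit was run on simulated counts with the same dispersion for every gene, to check that median log2FC estimates lay near the simulated ones. This does not test how calls behave where 1 library of a group stands apart. The 10 genes and the lists were chosen with earlier results of these data known. All 10 were described. Of each list, up to 5 called genes with the highest and 5 with the lowest log2FC could be named, and the 5 genes most like DDIT4 by Pearson's r. Alternatives were DESeq2 1.42.0, RLE size factors, 2 other filters, a replicate block, pooled controls, only the groups compared, all FaDu libraries and each library left out.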

Additional observations from a re-analysis of the deposited data

Results flagged for a closer look

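Among 40 pairs of a gene and a Kyse30 group of 4 libraries, 6 had a library whose distance from the nearest other library, on log2 CPM, was large against the range of its group (Dixon's criterion). Chance alone marks about 1 in 20 such groups. In the EGFlow group at 6 h, replicate 2 was marked for CHAC1 at 1.17 CPM (others 31.9 to 60.4), for SLC7A11 at 12.8 CPM (others 120.0 to 122) and for TRIB3 at 51.9 CPM (others 105 to 118). In the EGFhigh with EpEX group at 6 h, replicate 1 was marked for SESN2 at 325 CPM (others 25.1 to 34.9). ATF4 was at 176 CPM in EGFlow replicate 3 at 72 h (others 243 to 255). ASNS was at 0.975 CPM in EGFhigh replicate 3 at 6 h (others 2.99 to 3.21), on 5 counts. In the reported fits none of the 10 genes was called in either test of a difference between responses, between times or between lines, but with no filter on low counts 5 were called between times and 2 between lines. In fits of only the groups compared with 1 library left out, which do not repeat the reported joint fit, the DDIT4 difference between lines ran from 2.03 to 2.66.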

How the results depend on the processing

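Over all alternatives, 265 counts of called genes stayed within 1.5 times the reported count and 72 did not, and of the values of single genes 752 kept their direction and their side of the threshold, 90 lost the call, 70 gained it and 1 reversed. The reversed one was DDIT4 under EpEX at 72 h in Kyse30, from -0.10 without EpEX replicate 4 to 1.68 without replicate 2. The counts that moved are of the 10 genes called, and the cause was not tested. Shares of all genes called in these other settings are not given here, so a change in these counts is not a result about the 10 genes alone. With DESeq2, EGFhigh at 6 h in Kyse30 had 1 and the combination at 6 h 2. With a mean of at least 5 CPM, EGFhigh at 6 h had 1. With no filter, Kyse30 had 5 under EGFlow, 5 under EGFhigh, 1 under EpEX and 4 under the combination at 6 h, 1 under EpEX at 72 h, 2 for the combination against EGFhigh at 72 h, 2 for untreated 6 against 0 h, 1 for untreated 72 against 6 h and 5 for the EGFhigh response at 72 against 6 h, FaDu had 4 under EGFlow at 6 h, and the difference of responses between lines had 2. With only the groups compared, Kyse30 had 2 under EGFlow, 4 under EGFhigh and 0 under the combination at 6 h, 1 under EGFhigh and 1 for EGFhigh against EGFlow at 72 h and 1 for untreated 72 against 6 h, and FaDu had 1 under EGFhigh and 1 under EpEX at 6 h. With untreated and Fc libraries pooled as control, Kyse30 at 6 h had 2 under EGFlow, 3 under EGFhigh and 3 under the combination. With all FaDu libraries, the 5 FaDu counts above 0 and the count of Kyse30 against FaDu became 0.
With 1 library left out, the counts ran from 0 to 1 for Kyse30 EGFlow at 6 h, 0 to 3 for the combination at 6 h, 1 to 2 for EGFhigh and for EGFhigh against EGFlow at 72 h and 0 to 1 for the combination against EGFhigh at 72 h, and in FaDu stayed at 1 for EGFlow and ran from 0 to 1 for EGFhigh and 1 to 2 for EpEX at 6 h and 0 to 1 for the combination at 72 h. Where an arm was left with 1 library, it was taken to vary like the other groups. Leaving libraries out of the joint fit of 63 libraries was not run. In its place, chosen after seeing the data, it was done on the groups compared, where the difference of responses between lines ran from 0 to 2.
Replicate numbers were not taken to pair the libraries, since the labels do not say that they do. Whether they mark a shared batch was not tested. Deviations of same-numbered libraries had a mean correlation of 0.063 in Kyse30 (lowest -0.131, 64 of 217 pairs over 0.1), against -0.022 for other numbers. In FaDu the mean was 0.071 (14 of 42 pairs over 0.1), against -0.071, opposite by construction with 2 libraries a group. Untreated Kyse30 cells at 6 h had no replicate 2, while both EGF groups did. In all 7 Kyse30 groups at 0 and 6 h, replicate 1 was the highest library for a larger share of list genes (35.2% to 58.3%) than of all genes (24.5% to 37.9%), and had 5.99% to 7.44% mitochondrial counts. With a replicate block, 1 of the 10 genes was called under EGFlow and 2 under EGFhigh at 6 h in Kyse30, and 4 under EGFlow at 6 h in FaDu. Depth limits ASNS in Kyse30, which lay near the limit of 3 counts.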

Other observations

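Genes of neighbouring stress programs were followed as well. In Kyse30 at 6 h, the p53 target TP53INP1 and the glucocorticoid target PER1 fell under EGFlow (-2.57 and -1.46 on the log2 scale), under EGFhigh (-2.52 and -1.57) and under the combination against Fc (-1.91 and -1.47), 1 of 8 and 1 of 5 tested genes of their lists each time (1.5%, 2.55% and 4.52% of all genes were called). In FaDu, CDKN1A, the p53 target that arrests the cell cycle, rose under EGFlow (log2FC 2.86 ± 0.34, adjusted p = 5.31e-05) and EGFhigh (log2FC 2.5 ± 0.33, adjusted p = 0.00024) at 6 h and under the combination at 72 h (log2FC 1.73 ± 0.35, adjusted p = 0.0233). It was the only one of the 7 p53 targets tested that was called in these 3 comparisons, and under EpEX at 6 h both CDKN1A (3.68) and PLK3 (1.54) rose. In untreated cells at 6 h, 5 of 8 p53 targets were higher in Kyse30 than in FaDu, with a median log2FC of 1.72 over the 8 against 0 over all genes, where 2361 of 19634 genes were called higher and 22.4% in either direction, among them CDKN1A (log2FC 2.75 ± 0.55, adjusted p = 0.000119) and MDM2 (0.54).

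In untreated Kyse30 cells 5 of 108 list genes rose and 3 fell between 6 and 72 h (1.55% of all genes were called). ATF3 rose (log2FC 2.35 ± 0.45, adjusted p = 0.00215), as did the immediate early phosphatase DUSP1 (2.95) and PPP1R15A (1.44), while the NRF2 targets NQO1 (-1.61) and GCLM (-1.09) fell. At 72 h, EGFhigh with EpEX had more ATF3 (1.60) and DUSP1 (1.63) and less NDRG1 (-1.62) and OSGIN1 (-3.13) than EGFhigh alone.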
